A study of Homo sapiens with 4 samples.

Results

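Integrins are cell-surface receptors that join the extracellular matrix to the actin skeleton, and each is a pair of 1 alpha and 1 beta subunit. A subgroup binds matrix proteins through the short peptide arginine-glycine-aspartate (RGD), which fibronectin, vitronectin and the propeptide of latent TGF-beta carry. The alpha subunits of this subgroup are ITGAV (alpha V), ITGA5, ITGA8 and ITGA2B (alpha IIb), and its beta subunits are ITGB1, ITGB3, ITGB5, ITGB6 and ITGB8. A subunit without its partner is in general not carried to the cell surface, so message for a single subunit does not give a receptor.

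The 9 subunit genes were chosen by name, and their probes were found by the RefSeq accession in the probe name. All 9 were on the array, each as 1 target with 3 probes, which made 27 of 71998 probes and 9 of 17214 named genes. RNA came from HEK293 cells, an immortalized line of human embryonic kidney origin transformed with adenovirus DNA, grown to confluence in DMEM with serum (FBS) and antibiotics, with no treatment. There was 1 group of 4 replicates, each from its own plate and RNA extraction, and so no comparison between conditions. The question taken from the study was which genes the cells contain message for.

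Each array had its own zero. The study took seminal protein genes, whose message it judged improbable in these cells, and set the baseline at their mean plus 2 SD. With 10 matched control genes the baseline was 9.47, 9.94, 10.69 and 10.32 log2 units on replicates 1 to 4. A gene was called detected where the mean over the 4 arrays of its log2 level minus the baseline, here its distance, was above 0. Each probe binds its target with its own strength, so a distance says whether message was seen and is no scale for setting 1 gene's amount against another's. Genes widely reported in the line were detected in 5 of 5 cases, beside 52.7% of all named genes. The highest were VIM at 5.26 ± 0.64 and KRT8 at 4.80 ± 0.66 (SD, n = 4). The lowest, NEFM, stood at 0.66 ± 3.08 (SD, n = 4), with -1.62 and -2.24 on replicates 2 and 4. The limma test given below did not call NEFM (adjusted p = 0.0644) and called the other 4. Leukocyte markers were detected in 0 of 5 cases, and endothelial and fibroblast markers in 1 of 5 each (KDR at 0.30 ± 0.85 and COL1A1 at 0.37 ± 1.19).

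The start regions of these genes differ in their letters, and those of the members with a single RefSeq window are shown so that their bases can be read beside the message levels. RefSeq windows (GRCh38.p14) were given for 8 of the 9 genes, all but ITGB3. The window used here was the 250 bases before the transcript start. ITGA5, ITGA8, ITGB8, ITGA2B and ITGB6 had 1 window each. ITGA5 and ITGA8 were called above the baseline, though the test given below no longer called ITGA8 with a baseline of 3 SD. ITGB6 lay far below the baseline, while ITGB8 and ITGA2B lay close enough to it that their calls changed with its height. They are printed on the gene's own strand, with every CG step (cytosine followed by guanine) in capitals.
ITGA5, chr12:54419267-54419516, minus strand: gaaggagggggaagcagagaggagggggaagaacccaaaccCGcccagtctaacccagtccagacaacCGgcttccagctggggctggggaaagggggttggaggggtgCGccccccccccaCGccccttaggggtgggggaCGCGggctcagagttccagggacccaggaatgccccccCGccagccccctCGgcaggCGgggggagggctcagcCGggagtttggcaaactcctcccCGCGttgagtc
ITGA8, chr10:15719923-15720172, minus strand: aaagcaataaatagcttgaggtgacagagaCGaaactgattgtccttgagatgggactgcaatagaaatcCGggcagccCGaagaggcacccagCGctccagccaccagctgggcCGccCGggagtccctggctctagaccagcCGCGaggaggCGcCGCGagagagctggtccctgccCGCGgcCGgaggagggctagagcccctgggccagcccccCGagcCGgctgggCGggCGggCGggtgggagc
ITGB8, chr7:20330650-20330899, plus strand: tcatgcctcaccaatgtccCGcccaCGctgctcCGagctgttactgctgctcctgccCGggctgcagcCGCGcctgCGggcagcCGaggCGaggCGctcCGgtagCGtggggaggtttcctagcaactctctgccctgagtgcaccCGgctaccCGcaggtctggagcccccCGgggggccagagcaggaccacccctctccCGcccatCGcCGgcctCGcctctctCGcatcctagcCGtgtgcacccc
ITGA2B, chr17:44389650-44389899, minus strand: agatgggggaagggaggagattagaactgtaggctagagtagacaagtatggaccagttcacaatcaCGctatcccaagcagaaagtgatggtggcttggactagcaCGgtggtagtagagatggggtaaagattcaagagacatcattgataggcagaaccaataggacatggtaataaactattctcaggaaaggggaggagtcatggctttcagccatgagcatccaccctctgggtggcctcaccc
ITGB6, chr2:160200273-160200522, minus strand: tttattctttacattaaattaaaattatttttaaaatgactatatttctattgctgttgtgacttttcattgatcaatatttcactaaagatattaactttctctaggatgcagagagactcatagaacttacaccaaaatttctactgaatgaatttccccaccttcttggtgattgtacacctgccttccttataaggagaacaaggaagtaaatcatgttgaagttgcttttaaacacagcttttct

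The windows of ITGA5, ITGA8 and ITGB8 held 12, 19 and 21 CG steps, and those of ITGA2B and ITGB6 held 2 and 0. The median over 35116 windows of the same length was 11. A window with no CG step, as for ITGB6, was in the lowest 6.06% of all windows. The remaining genes with windows had several, with 1 and 18 CG steps for ITGAV, 4 and 32 for ITGB1, and 9, 19 and 23 for ITGB5. The letters GGGCGG, the core of a GC box, were counted on both strands without overlapping copies and occur in 42.6% of all windows. They were found 1, 3 and 2 times before ITGA5, ITGA8 and ITGB8, and 0 times before ITGA2B and ITGB6. The ITGA8 window ends in overlapping copies, which its count of 3 does not hold in full. Both windows of ITGAV, a subunit called on all 4 arrays, held 0 as well, while the windows of ITGB1 held 3 and 0 and those of ITGB5 held 2, 0 and 3. TATAAA, counted on both strands and present in 10.7% of windows, was found 3 times in 1 window of ITGB1 and in no other window of the 8 genes. These are counts of letters in fixed windows, and no factor's binding was measured.

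Of the 9 subunits, 6 (66.7%) were detected, beside 52.7% of all named genes. Message lay above the baseline on all 4 arrays for 5 of them (55.6%), beside 45.0% of all genes. A one-sided limma test of the distances against 0, adjusted over all 17214 genes, called the same 5 subunits, beside 45.9% of all genes. These 5 were ITGAV, ITGA5, ITGA8, ITGB1 and ITGB5, and ITGB8 was detected without passing the test. The subunits' median distance was 1.83 log2 units, and that of all genes was 0.26. The shares for the subunits were thus not far from those of all genes.

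**Figure D1:**
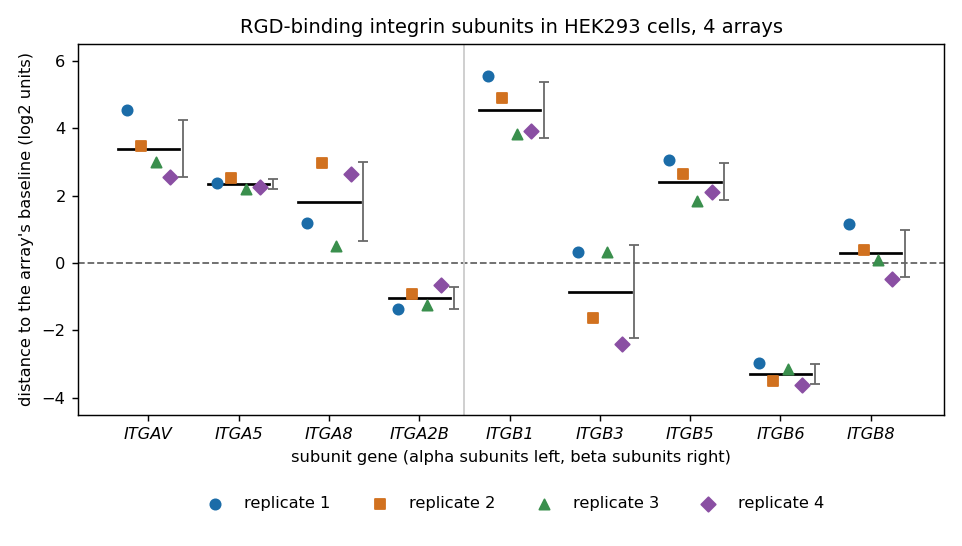
Distance of each subunit to the baseline of its array in log2 units (vertical axis), with 1 symbol for each of the 4 arrays, a black bar at the mean and a grey error bar of 1 SD beside it. ITGAV, ITGA5, ITGA8, ITGB1 and ITGB5 lie above the dashed zero line on all 4 arrays, ITGB8 and ITGB3 cross it, and ITGA2B and ITGB6 lie below it on all 4.

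ITGB1, the beta subunit shared by the largest number of integrins, lay 5.55, 4.89, 3.83 and 3.91 log2 units above the baseline on replicates 1 to 4. Its mean distance was 4.55 ± 0.82 (SD, n = 4), and every array was far above zero. All 12 of its probe values, 3 probes on 4 arrays, were above the baseline, by 3.44 at the least. Of all probe values on the arrays 43.5% were above it. The baseline came from gene values, which average the probes, so it is not a threshold made for single probes. The mean levels of its 3 probes lay within 0.13 log2 units of each other.

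ITGAV, the alpha subunit that pairs with 5 different beta subunits, lay 4.55, 3.48, 3.00 and 2.57 log2 units above the baseline. The mean was 3.40 ± 0.85 (SD, n = 4), and it passed the limma test. Its probes did not behave alike. The probe with the highest signal stood 3.98 to 5.76 log2 units above the baseline and the next one 0.49 to 3.75, while the third ran from -0.93 to 1.35 and was below zero on replicates 3 and 4. The gene's value rests mostly on the brightest probe, since the probes were averaged before the log2 step. The mean distance was 2.14 with the median of the probes and 2.56 with the mean of their log2 values, and limma called it with both.

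ITGA5, whose pair with ITGB1 is the classical fibronectin receptor, lay 2.39, 2.53, 2.20 and 2.25 log2 units above the baseline. The mean was 2.34 ± 0.15 (SD, n = 4), with an SD below the median of 0.63 for the distance of a gene. Its level before subtraction was not unusually steady. It ran from 11.85 to 12.89 log2 units, with an SD of 0.44 beside a median of 0.42 over all genes. All 12 probe values were above the baseline. ITGB5, which pairs with ITGAV as a receptor for vitronectin, lay 3.06, 2.65, 1.83 and 2.10 log2 units above it, with a mean of 2.41 ± 0.55 (SD, n = 4). All 12 of its probe values were above the baseline too. Its level before subtraction hardly moved, from 12.42 to 12.59 log2 units, and 99.2% of genes (17083 of 17214) had an SD of the level at least as large. Almost all of the spread in its distance was therefore that of the baseline.

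ITGA8, which pairs with ITGB1 and is known from kidney development, lay 1.18, 2.98, 0.50 and 2.65 log2 units above the baseline. Its mean was 1.83 ± 1.18 (SD, n = 4), and it passed the limma test (adjusted p = 3.1e-07). That test used a standard error common to all genes (0.351), so its p-value does not measure the wide spread of ITGA8 itself. Its message was above zero on each array, but the arrays fell apart into high (replicates 2 and 4) and low (replicates 1 and 3). With a baseline of 3 SD the mean was 0.51 and the test no longer passed (limma adjusted p = 0.278).

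ITGB8, whose pair with ITGAV is known for activating latent TGF-beta, lay 1.17, 0.38, 0.08 and -0.49 log2 units from the baseline. Its mean of 0.29 ± 0.69 (SD, n = 4) was within 1 standard error (0.35) of zero and did not pass the test (limma adjusted p = 0.419). Replicate 4 was below zero, and 6 of 12 probe values reached the baseline, beside 43.5% of all probe values. Without replicate 1 the mean was -0.0099.

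ITGB3, the beta subunit of the platelet fibrinogen receptor and of the vitronectin receptor, stood at 0.32, -1.63, 0.32 and -2.40 log2 units. Its mean was -0.85 ± 1.39 (SD, n = 4), and replicates 1 and 3 were just above the baseline while 2 and 4 were well below. Only 2 of its 12 probe values, both of 1 probe, were above it. ITGA2B, the platelet alpha subunit that pairs with ITGB3, stood at -1.37, -0.90, -1.23 and -0.65, with a mean of -1.04 ± 0.32 (SD, n = 4). It was below the baseline on all 4 arrays, with 1 of 12 probe values above. For both of these genes the sign rested on the height of the baseline. Without SPATA5 and SPATA13, the highest control genes, they stood at 1.48 (ITGB3) and 1.29 (ITGA2B) above it.

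ITGB6, an epithelial beta subunit that pairs with ITGAV alone, stood at -2.96, -3.49, -3.14 and -3.61 log2 units. Its mean of -3.30 ± 0.30 (SD, n = 4) lay in the range of the control genes, which was -3.58 to -0.13. None of its 12 probe values reached the baseline, and its mean was below zero under each of 19 alternative settings. Message for ITGB6 was not detectable on these arrays.

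**Figure D2:**
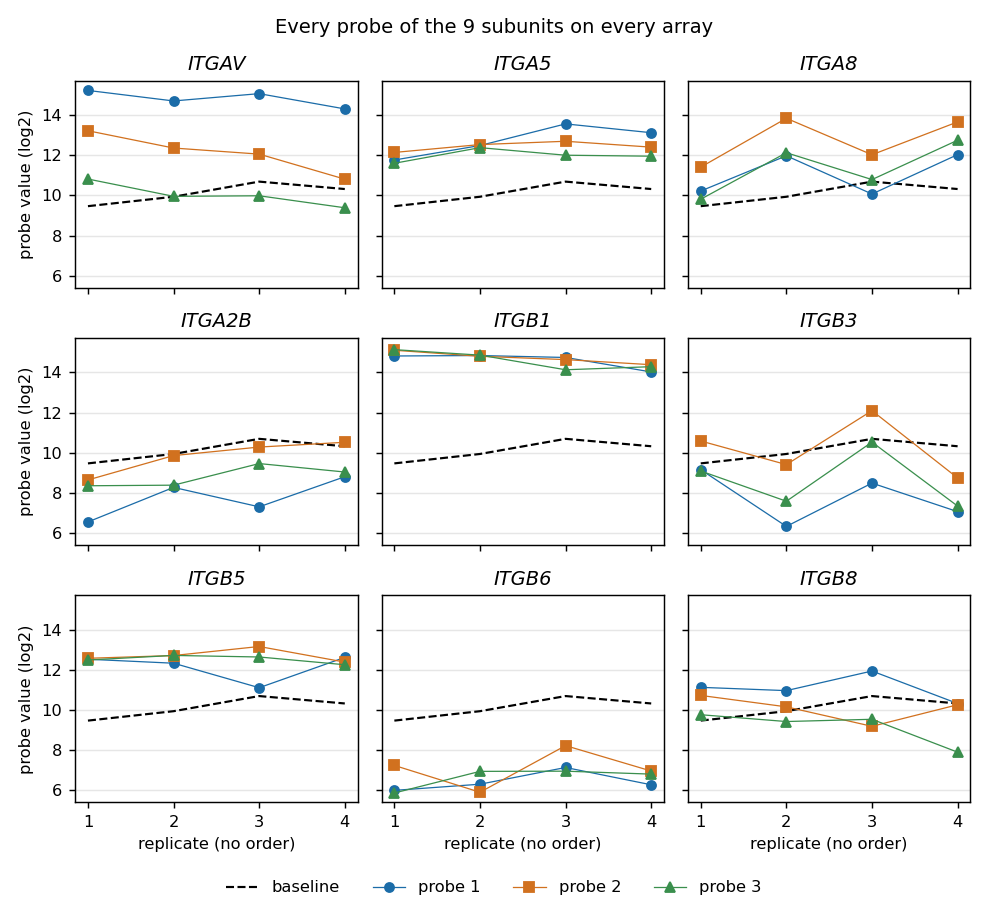
Log2 value of each of the 3 probes of every subunit on the 4 arrays (1 panel per gene, same axes; lines join a probe's values and replicates have no order), with the array's baseline dashed. The 3 probes of ITGB1 lie together far above the baseline, those of ITGAV are spread over several log2 units, and all 3 probes of ITGA8 are high on replicates 2 and 4 while all 3 of ITGB3 are high on replicates 1 and 3.

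Because the subunits work in pairs, the 8 known RGD-binding pairs were then read off. Both subunits were detected for 5 of the 8, and both were above the baseline on all 4 arrays and called by limma for 4. The 4 were ITGAV with ITGB1, ITGAV with ITGB5, ITGA5 with ITGB1 and ITGA8 with ITGB1. ITGAV with ITGB8 had both above the baseline on 3 of 4 arrays. ITGAV with ITGB3 had both above on 2 of 4, and the platelet pair ITGA2B with ITGB3 and the epithelial pair ITGAV with ITGB6 on 0 of 4. On single arrays the number of pairs was 6, 5, 6 and 4 for replicates 1 to 4. These counts concern message, and neither protein nor pairing at the cell surface was measured.

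**Figure D3:**
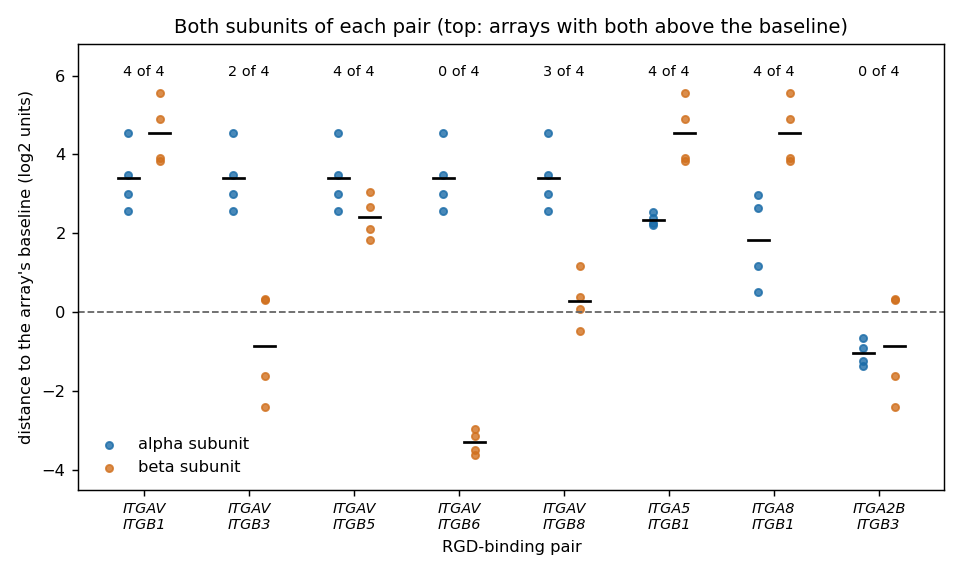
Distances of the alpha (blue) and the beta (orange) subunit of each RGD-binding pair to the array's baseline in log2 units, 4 arrays each, with a black bar at the mean. The number at the top counts the arrays on which both were above the dashed zero line: 4 of 4 for the pairs with ITGB1 and for ITGAV with ITGB5, 3 for ITGAV with ITGB8, 2 for ITGAV with ITGB3 and 0 for the others.

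ITGA8 and ITGB3 varied between arrays more than nearly all other genes, and in opposite directions. The level of ITGA8 was 10.65 and 11.19 log2 units on replicates 1 and 3 against 12.91 and 12.97 on replicates 2 and 4. The level of ITGB3 was 9.79 and 11.01 on replicates 1 and 3 against 8.31 and 7.92 on replicates 2 and 4. The arrays thus did not overlap for either gene. For ITGA8 1.72 log2 units lay between the nearest of them, and the split was seen in 40.7% of all genes but at that size, in either direction, in 0.86%. ITGB3 was below the baseline on replicates 2 and 4 with all 3 probes, so the size of its difference was not measured. All 3 probes of each gene showed the split, which was so for 7.12% of all genes. The grouping was known from earlier results of these data. Over all genes, replicate 1 correlated best with 3 (r = 0.971) and 2 with 4 (r = 0.977), while the shared value distributions joined 1 with 2 and 3 with 4. The labels give no property that separates these arrays, so no test was made. In such bulk samples fewer cells with a message and less message per cell cannot be told apart. ITGAV was split like ITGB3, by 0.27 log2 units. ITGB8 was also higher on replicates 1 and 3, but replicate 4 was below the baseline. The other 5 subunits did not show the split.

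Some genes of the other lists were split in the same way. The neurofilament gene NEFM, one of the genes widely reported in the line, had levels of 13.57 and 13.09 on replicates 1 and 3 against 8.32 and 8.08 on replicates 2 and 4. The platelet glycoprotein gene GP1BA, like ITGA8, was high on replicates 2 and 4, at 11.92 and 12.47 against 9.44 and 11.02. GP6 and GP9 were also higher on replicates 2 and 4, but with means below the baseline. Of the 5 platelet markers, PF4, PPBP, GP6 and GP9 were not detected (-3.54 to -1.23), while GP1BA stood at 1.11 ± 1.12 (SD, n = 4). Limma called GP1BA (adjusted p = 0.0019), but with a baseline of 3 SD its mean was -0.21. The platelet pair ITGA2B and ITGB3 was thus measured beside 5 platelet markers of which 4 had, like the pair itself, a mean below the baseline. Without SPATA5 and SPATA13 among the control genes, the pair, GP6 and GP9 stood above the baseline, while PF4 and PPBP stayed below it. What part other cells had in any of these values was not tested.

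The RGD-carrying ligands gave 11 of 23 genes detected, 10 of them on all 4 arrays and 10 by limma. The same rules called 52.7%, 45.0% and 45.9% of all genes. The median distance of the ligands was -0.56 log2 units, below the 0.26 of all genes. TNC (tenascin C) stood at 4.55 ± 0.68, TGFB1 at 4.38 ± 0.43, EDIL3 at 3.74 ± 0.20 and MFGE8, a bridging protein for dying cells, at 3.55 ± 0.62 (SD, n = 4 for each). The bone protein MEPE, IGFBP1 and the fibrinogen chain FGA were lowest, at -3.73 to -3.52. Named after their values were seen, NPNT (nephronectin), the matrix ligand of the ITGA8 and ITGB1 pair, stood at 2.75 ± 0.53, FN1 (fibronectin) at 2.30 ± 1.11 and VTN (vitronectin) at -2.94 ± 0.61 (SD, n = 4 for each). FN1 followed the split of ITGB3, with levels of 12.65 and 14.04 on replicates 1 and 3 and 11.37 and 11.57 on replicates 2 and 4. Of the 23 ligand genes, 8 were higher on both of replicates 1 and 3 and 1 was higher on both of 2 and 4, beside 3825 and 3180 of all 17214 genes. In either direction the split was seen in 40.7% of all genes. Among the 8, and named after their values were seen, FBN1 and THBS1 were below the baseline on all 4 arrays. The size of their differences was thus not measured, and the counts were not tested.

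Latent TGF-beta is held by binding proteins, and some integrins can activate it where its propeptide carries RGD. Of these 9 genes 7 were detected, 4 on all 4 arrays and 5 by limma, beside 52.7%, 45.0% and 45.9% of all genes. The count on all 4 arrays was thus at the share of all genes. TGFB1 is given above, and TGFB3, whose propeptide also has RGD, stood at 1.03 ± 0.44. TGFB2, whose propeptide does not, stood at 0.57 ± 0.45 (limma adjusted p = 0.113). Of the LTBP family of matrix proteins, most of which anchor the latent complex, LTBP1 stood at 4.75 ± 0.54 and LTBP4 at 1.32 ± 0.32, with LTBP3 at 0.96 ± 0.86 and LTBP2 at 0.59 ± 0.65 (SD, n = 4 for each). The membrane anchors LRRC32 and NRROS, known from regulatory T cells and microglia, were not detected, at -3.16 ± 0.28 and -3.05 ± 0.66 (SD, n = 4).

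Integrins outside the RGD subgroup gave 6 of 14 alpha genes and 1 of 3 beta genes detected, and limma called 3 and 0 of them, beside 52.7% detected and 45.9% called of all genes. With the median of the probes 4 of the 14 alpha genes were detected. The laminin-binding subunits ITGA6 and ITGA7 stood at 1.53 ± 0.94 and 0.94 ± 1.04, and ITGA3 at 0.49 ± 0.57 (SD, n = 4 for each). ITGA7 fell to -0.69 with the median of the probes and was also below the baseline with 3 SD. ITGAE, a lymphocyte subunit, stood at 1.32 ± 0.96 but fell below the baseline, to -1.52 at the lowest, when its probes were summarised by their median or by the mean of their log2 values. ITGB4 stood at 0.43 ± 0.30 and also fell below with those summaries. The leukocyte subunits ITGAM and ITGB2 were not detected, at -3.02 ± 0.37 and -1.53 ± 1.03 (SD, n = 4).

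Inside the cell, talins and kindlins bind the beta tail and switch the pair on, while other proteins hold it off or act on the talin and kindlin step. The list held activators, inhibitors and indirect regulators together, and of its 14 matched genes 10 were detected and 9 were called by limma, with a median distance of 2.20 log2 units. FLNA (filamin A) and ITGB1BP1 are known as tail binders that hold activation back, TLN1 as an activator, and RAP1B as a small GTPase that acts upstream of talin. FLNA stood at 5.52 ± 0.54, TLN1 (talin 1) at 4.45 ± 0.55, RAP1B at 3.50 ± 0.84 and ITGB1BP1 at 3.40 ± 0.80 (SD, n = 4 for each). FERMT3, the blood cell kindlin, and APBB1IP stood below the baseline at -2.49 ± 0.36 and -2.72 ± 0.76 (SD, n = 4), and KRIT1 at -2.71 ± 0.89. Named after their values were seen, the kindlins FERMT2 and FERMT1 stood at 3.35 ± 0.59 and -1.12 ± 0.93 (SD, n = 4). Adaptors and kinases of focal adhesions gave 16 of 20 genes detected and 15 by limma, with a median of 2.60. Among them were the scaffold protein ILK at 4.93 ± 0.58 and the actin crosslinkers ACTN1 and ACTN4 at 4.77 ± 0.53 and 4.55 ± 0.67 (SD, n = 4 for each). PARVG, a blood cell parvin, stood at -3.13 ± 0.63 and PTK2B at -1.96 ± 1.13. Also named after their values were seen, PARVA stood at 2.82 ± 0.96, PARVB at 2.94 ± 0.83 and PTK2 at 3.70 ± 0.51 (SD, n = 4 for each). Surface partners such as the tetraspanins CD63, CD9, CD151 and CD81 were detected in 8 of 8 matched cases, at means from 0.81 (PLAUR) to 5.44 (CD63). Of all genes 52.7% were detected and 45.9% were called by limma, with a median distance of 0.26. The lists were not tested against these values.

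**Figure D4:**
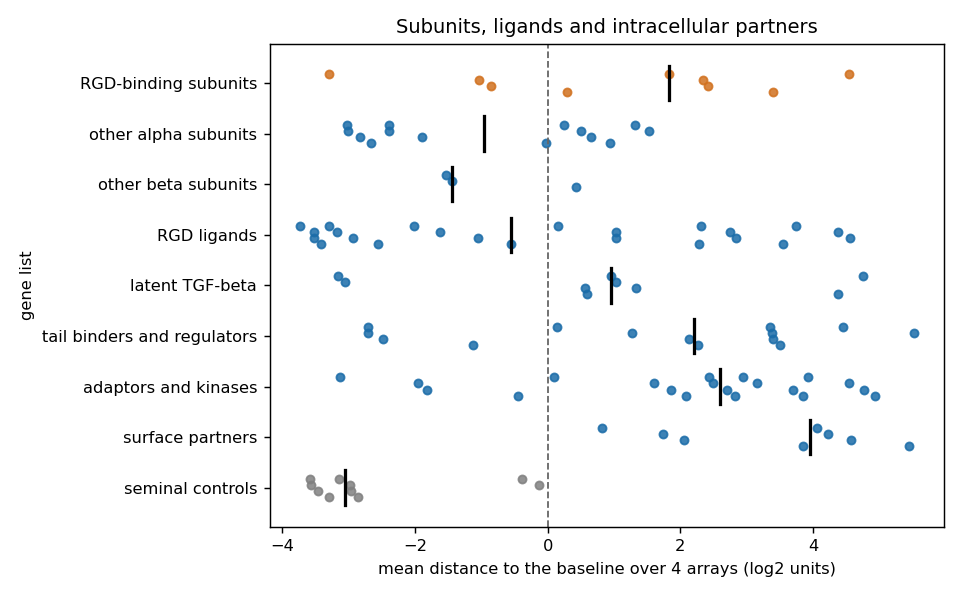
Mean distance to the baseline over 4 arrays in log2 units (horizontal axis), 1 point per gene, for the RGD-binding subunits (orange), the other integrin, ligand and partner lists (blue) and the seminal control genes (grey), with a black bar at each list's median. The medians of tail binders and regulators, adaptors and surface partners lie at 2.20, 2.60 and 3.95, and that of the RGD ligands at -0.56, below the dashed zero line.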

How the data were processed

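HEK293 RNA was hybridised in 1 colour to NimbleGen arrays of 60-mer probes designed on HG18. The authors deposited log2 values per probe, and the submitters' notes name RMA. Sorted values within 0.01 coincided at 99.97% of ranks between arrays 1 and 2 and at 99.99% between arrays 3 and 4, which is the form of quantile normalization in 2 pairs. Raw intensities were not used here, so background and saturation were not examined.

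Accessions were matched without versions to RefSeq (GRCh38.p14), which named 19122 of 24000 targets. The probes of a target were averaged on the linear scale and returned to log2, and the targets of a gene were then averaged. The baseline was the study's (mean plus 2 SD of the seminal genes, 10 of 11 matched). limma 3.58 in R 4.3 tested distances against 0, one-sided, with Benjamini-Hochberg adjustment at 0.05. Its prior made all standard errors equal (0.351), and a shift of a baseline moves all genes of an array together, so p-values are given sparingly. No exact sign-flip test over 4 arrays can go below 0.0625. The script was tested on simulated data.

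The members, lists and alternatives were chosen with earlier results of these data known. Genes named are the members and, per list, up to 4 detected genes of largest distance above the baseline on all arrays, the 3 lowest, those within 1 standard error of the baseline, and any gene of a list of up to 10. Others are said to be named after their values were seen. Of the listed genes CD47, SLC3A2, RASGRP2 and PYY2 were not matched. Any array limits precision by its number, here 4.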

Additional observations from a re-analysis of the deposited data

Results flagged for a closer look

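The distances of 90 genes that could be named were looked at for an array apart from the other 3, by its gap to the nearest array divided by the range, against Dixon's critical value for 4 samples. No subunit of the RGD-binding group was apart in this way. There were 4 other genes, about as many as the 1 in 20 that chance marks. TLN1 stood at 5.27 on replicate 1 and 4.11 to 4.28 on the others (ratio 0.849). TNC stood at 5.56 on replicate 1 and 4.12 to 4.34 on the others (ratio 0.845). VWF stood at -2.63 on replicate 4 and -3.37 to -3.34 on the others (ratio 0.948). The control gene ODF1 stood at -3.65 on replicate 4 and -3.42 to -3.39 on the others (ratio 0.8615). In the levels before the baseline was subtracted the ratios of these 4 genes were 0.3496 (TLN1), 0.3495 (TNC), 0.287 (VWF) and 0.5003 (ODF1), below the critical value. In those levels 5 different genes passed it, namely PTPRC (0.9875), CAV1 (0.905), TEK (0.868), ITGAE (0.866) and LTBP2 (0.856).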

How the results depend on the processing

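No paired analysis was possible because there is a single group. Of 171 distances of the 9 subunits under alternatives, 152 kept their sign and their side of the limma threshold. Some could not move. A trend and robust prior in limma, or a filter on dim genes, left every distance as it was by construction. Each subunit had 1 target, so taking the highest target moved only the baseline. The filter left ITGA2B, ITGB3 and ITGB6 untested, and these were counted as kept. ITGAV, ITGA5, ITGB1, ITGB5 and ITGB6 kept both wherever they were tested. With 1 SD, with the median and scaled median absolute deviation, without SPATA5 and SPATA13, and with olfactory receptor genes as controls, the mean distances were 0.28, 0.67, 1.29 and 1.04 for ITGA2B and 0.47, 0.86, 1.48 and 1.24 for ITGB3, each above zero, and 1.60, 1.99, 2.61 and 2.37 for ITGB8, each past the threshold. Under the last 3 of these settings limma called 8 of the 9 subunits in place of 5 (8, 8 and 8). Limma calls among all genes were not counted under these settings. By the rule of a mean distance above 0, detected subunits rose from 6 to 8 under each of the 3. By that same rule detected genes among all 17214 rose from 9072 to 11655, 12745 and 12287. With 3 SD the distance was -1.03 for ITGB8, and 0.51 for ITGA8, which lost its call. On replicates 1 and 3 alone ITGA8 lost it as well, at 0.84 (limma adjusted p = 0.204), and ITGB3 stood at 0.32. ITGB8 stood at -0.20 on replicates 3 and 4 alone, at -0.055 on replicates 2 and 4 alone, and from -0.0099 to 0.54 with 1 array left out. With 1 SD, 3 SD, the median and its deviation, and the other sets of control genes, the higher or lower baselines made the shifts by construction. The cause of the shifts with fewer arrays was not tested. The counts of subunits and of pairs detected stayed within 1.5 times of 6 and 5. Of 216 counts over lists 183 stayed within that limit. With 3 SD detected genes fell to 2 of 14 other alpha subunits, 8 of 23 RGD ligands and 3 of 9 latent TGF-beta genes. Without SPATA5 and SPATA13 the alpha subunits came to 8 and the ligands to 15, and the latent TGF-beta genes stayed at 7. The mean baseline was 11.42 log2 units with 3 SD in place of 10.10, so every gene detected by less than that difference fell below it. The number of arrays, 4, and the choice of 10 control genes limit these calls.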

Other observations

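The other genes with the closest course over the 4 arrays to the mean of the 5 subunits above the baseline on all of them were GTPBP10, GPATCH4 and ONECUT1. Their levels, centred on each gene's mean, differed from the subunits' mean by a root mean square of 0.0172, 0.0173 and 0.0241 log2 units over 4 arrays of 1 group. The mean of the 5 was itself an average of unlike courses, since ITGA8 ran from -1.28 to 1.04 around its mean and ITGB5 from -0.09 to 0.08.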
